A study of Homo sapiens with 30 samples.

Results

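T47D cells given an siRNA against CEBPA differed from cells given a control siRNA in their progestin response at 1329 of 18351 genes tested (7.24%). The larger part of the response showed no detectable difference. CEBPA encodes the transcription factor C/EBPα, whose protein these RNA libraries do not measure, and effects of the siRNA on other targets were not tested. T47D is a human breast cancer line of luminal epithelial type that carries much progesterone receptor. The comparison used 8 RNA-seq libraries of the 30 samples in the series, all those from cells transfected with an siRNA, in 4 groups of 2. Cells given an siRNA against CEBPA (siCEBPA) and cells given a control siRNA (siControl) were each taken with progestin and untreated. The progestin was R5020, a synthetic agonist of the progesterone receptor, at 10 nM. Every one of the 4 groups was grown at passage 18 to 20 and had a short arrest, which per the labels' protocols was 4 hours in charcoal-treated serum before hormone. All progestin libraries carry the time label T360 and all untreated libraries T0, with no unit, so hormone and time label cannot be told apart. The genes were chosen by 1 contrast, the log2 change with progestin in siCEBPA cells minus the log2 change with progestin in siControl cells, called the difference of responses below.

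Progestin binds the progesterone receptor, which then binds DNA near hormone-responsive genes and recruits cofactors that raise or lower their transcription, and the activated receptor also feeds into kinase signalling through ERK. C/EBPα, encoded by CEBPA, is a leucine zipper transcription factor best known for driving differentiation and halting proliferation in fat, liver and myeloid cells. It binds a short palindromic DNA element as a dimer, also with other members of its family.

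The 8 libraries held 57364785 to 148624099 counts, with siControl untreated replicate 2 the deepest and 70704799 the next highest. The 9 luminal markers KRT8, KRT18, KRT19, EPCAM, CDH1, GATA3, FOXA1, ESR1 and PGR, which check the label, summed to 7040 to 7280 CPM (counts scaled to library size with TMM) in siCEBPA progestin cells and 7520 to 7540 CPM in siCEBPA untreated cells. The sum was 8940 to 9600 CPM in siControl progestin cells and 8660 to 9130 CPM in siControl untreated cells. With progestin, FOXA1, ESR1 and PGR were each higher in siCEBPA than in siControl cells, so the luminal sum does not describe each marker. The luminal sum itself was lower in siCEBPA cells at both hormone states, and its part in the results below was not tested. The 3 basal markers KRT5, KRT14 and TP63 were low but moved the other way, with a sum of 2.34 to 2.75 CPM in siCEBPA progestin cells and 1.62 to 1.71 CPM in siCEBPA untreated cells, against 0.816 to 0.832 CPM in siControl progestin cells and 0.358 to 0.6 CPM in siControl untreated cells. The part of the basal markers was not tested either. The 4 endothelial and 5 blood cell markers were each under 1 CPM in every library, and so were 4 of the 6 fibroblast markers. COL1A1, at 54.7 to 69.1 CPM, supplied nearly all of the fibroblast sum of 56.4 to 73.3 CPM, and its difference of responses was 0.09 ± 0.10 and not called (edgeR, adjusted p = 0.683). The labels do not say that replicates were separate cultures, so the p-values measure only how these libraries vary, and that variation may be technical. In bulk RNA, fewer cells of a kind and less RNA per cell cannot be told apart. Levels are given for each library in the order of its replicate number, changes are edgeR log2 fold changes with their SE (n = 2 per group), and a gene is called at an adjusted p under 0.05. Positions are on hg38.

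CEBPA itself (chr19:33299934-33302564), the target of the siRNA, stood at 57.6 and 61.9 CPM in siCEBPA progestin cells and 10.7 and 12.1 CPM in siCEBPA untreated cells. CEBPA had 204 and 202 CPM in siControl progestin cells and 47.5 and 54.2 CPM in siControl untreated cells. Within each hormone state both siCEBPA libraries lay below both siControl libraries, and the gene still responded to the hormone at the lower level. Its response was 2.39 ± 0.07 in siCEBPA cells and 1.99 ± 0.06 in siControl cells, a difference of 0.40 ± 0.10 (adjusted p = 0.0209). The gain of CEBPA in CPM was the smaller in siCEBPA cells. Both siCEBPA progestin libraries held slightly more CEBPA RNA than the siControl untreated libraries. The small difference in the response of CEBPA was not called without siCEBPA progestin replicate 2 (adjusted p = 0.0507), siCEBPA untreated replicate 1 (adjusted p = 0.115), siControl progestin replicate 1 (adjusted p = 0.0992), siControl progestin replicate 2 (adjusted p = 0.0887) or siControl untreated replicate 2 (adjusted p = 0.0635), by edgeR.

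Of the 1329 called genes, 768 had a more positive response in siCEBPA cells (4.19% of those tested) and 561 a more negative one (3.06%). A difference of at least 2-fold was found for 129 genes, 87 above 0 and 42 below, and one of at least 4-fold for 15. The median difference over all genes tested was 0.02, with the 5th percentile at -0.72 and the 95th at 0.78. The hormone response itself was called at 58.2% of genes in siCEBPA cells and 58.5% in siControl cells, and sorting the 1329 genes by both responses gave 695 weakened, 549 strengthened and 85 reversed. A response counted as weakened where both responses were called with the same sign and the one in siCEBPA cells was smaller (506 genes, here attenuated) or where it was called in siControl cells alone (189 genes, here lost). It counted as strengthened where it was larger in siCEBPA cells (398, enhanced) or called there alone (151, gained), and as reversed where both were called with opposite signs. The log2 response in siCEBPA cells was divided by that in siControl cells gene by gene. The median of this ratio was 0.6 among attenuated genes and 1.68 among enhanced genes. The weakened genes were 384 that progestin raised and 311 that it lowered, while the strengthened genes were 411 that it raised and 138 that it lowered. That split of the strengthened genes was 347 and 219 with upper quartile scaling. That scaling put the median response of all genes at -0.16 in siCEBPA cells and -0.15 in siControl cells, against -0.03 in both with TMM. Without siControl progestin replicate 1 the calls numbered 692, of which 47 were reversed, and without siControl progestin replicate 2 they numbered 779, of which 49 were reversed. Without siCEBPA untreated replicate 1 the calls below 0 numbered 359, and without siCEBPA untreated replicate 2 the reversed genes numbered 54.

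**Figure D1:**
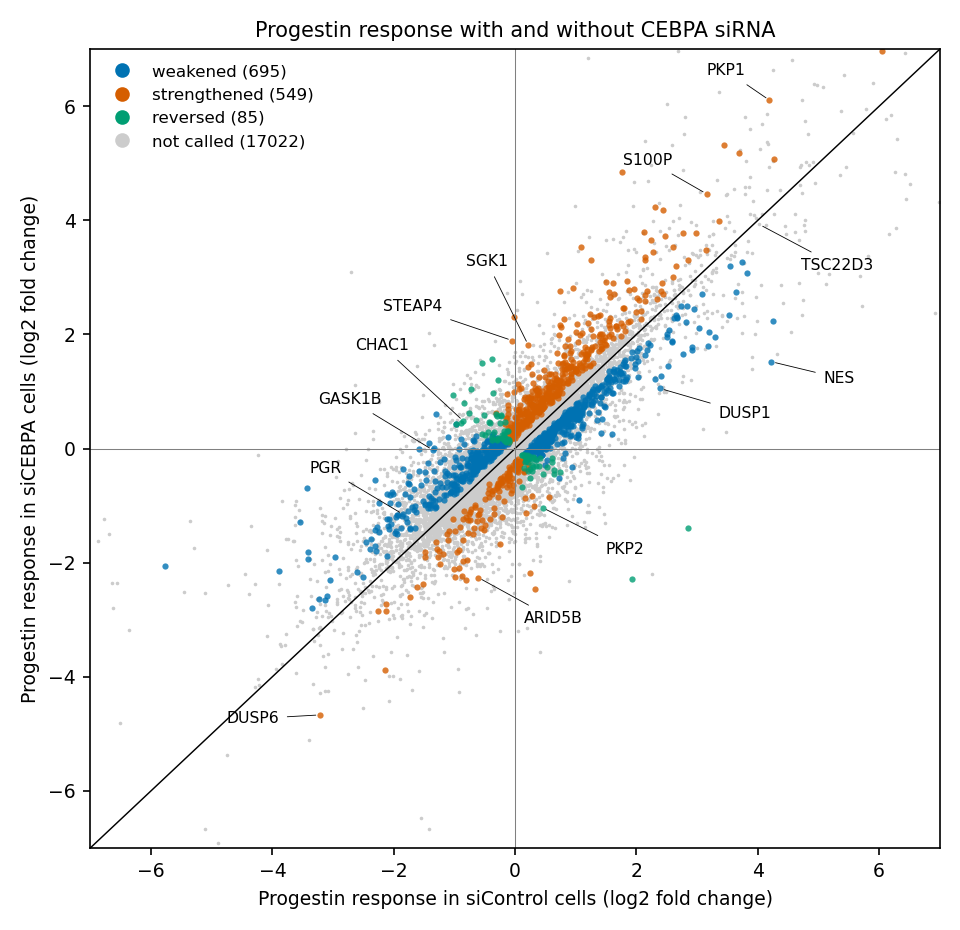
Progestin response of every gene tested, as log2 fold change in siCEBPA cells (vertical axis) against log2 fold change in siControl cells (horizontal axis), coloured for the 695 weakened, 549 strengthened and 85 reversed genes; the diagonal marks equal responses. Weakened genes lie between the diagonal and the horizontal axis or, where the response was lost, on either side of that axis. Strengthened genes lie beyond the diagonal or, where the response was gained, on either side of the vertical axis. The axes leave out 45 genes, 0 of them called.

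Each difference was then traced to the level with hormone (induced) or without it (basal), by the contrasts of siCEBPA against siControl at the 2 hormone states, which called 44.6% of genes with progestin and 46.6% untreated. Of the 1329 genes, 361 differed between siCEBPA and siControl cells with progestin only, 318 untreated only, 475 at both states with the same sign, 173 at both with opposite signs and 2 at neither. The largest number was therefore displaced in the same direction with and without hormone, by unequal amounts. Among weakened genes that progestin raised, the induced level was lower in siCEBPA cells for 242 and the basal level higher for 187. Among weakened genes that progestin lowered, the induced level was higher for 198 and the basal level lower for 147. Strengthened genes that progestin raised had a lower basal level in siCEBPA cells at 257 and a higher induced level at 209 of 411. Strengthened genes that it lowered had a higher basal level at 79 and a lower induced level at 74 of 138. A gene could count at both states, and since the difference of responses is the induced minus the basal difference, these counts describe it and do not test it.

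**Figure D2:**
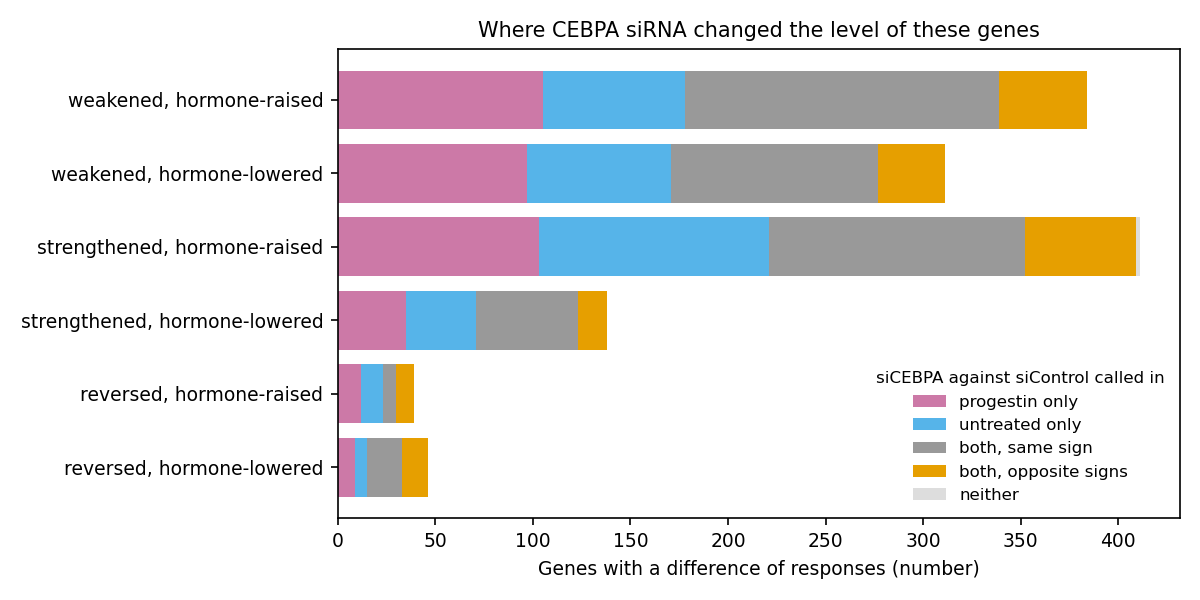
Number of genes (horizontal axis) with a called difference of responses, by class and by the direction of the hormone response, split by the hormone state at which siCEBPA and siControl levels differed. Genes displaced at both states with the same sign are the largest block, with 475 of 1329, and the strengthened genes that progestin raised are the group with the most differences in untreated cells only.

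**Figure D3:**
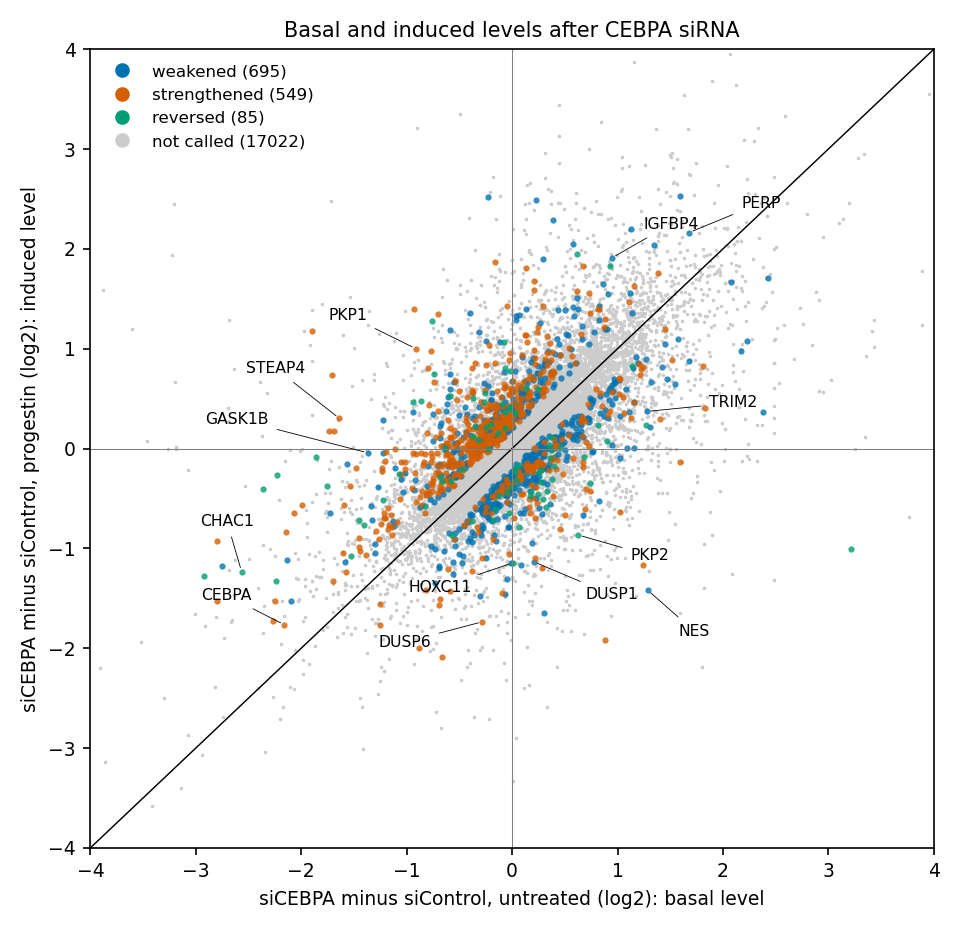
Log2 difference between siCEBPA and siControl cells with progestin (vertical axis, induced level) against the same difference in untreated cells (horizontal axis, basal level) for every gene tested, coloured by class; the diagonal marks equal displacement, which is no difference of responses. GASK1B and STEAP4 lie left of 0 near the horizontal axis (basal change), HOXC11 and DUSP1 below 0 near the vertical axis (induced change), and 33 genes, 2 of them called, fall outside the axes.

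The attenuated responses that progestin raised were led by NES, EFNA3, DUSP1, VAT1L and CRYAB. NES (chr1:156668763-156677397), which encodes the intermediate filament protein nestin, stood at 4.31 and 4.36 CPM in siCEBPA progestin cells and 1.69 and 1.31 CPM in siCEBPA untreated cells. NES had 11.9 and 11.3 CPM in siControl progestin cells and 0.643 and 0.603 CPM in siControl untreated cells. The libraries of the 4 groups did not overlap, and nestin RNA was higher in siCEBPA cells without hormone and lower in them with it. Its response was 1.52 ± 0.14 in siCEBPA cells and 4.23 ± 0.14 in siControl cells, a difference of -2.70 ± 0.21 (adjusted p = 1.44e-06), the largest size among the attenuated genes named by the rule. Here both levels moved, by -1.42 ± 0.12 with progestin and 1.29 ± 0.17 without.

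DUSP1 (chr5:172768090-172771195), a phosphatase that inactivates MAP kinases and a textbook steroid-induced gene, stood at 20.9 and 20.4 CPM in siCEBPA progestin cells and 9.93 and 9.96 CPM in siCEBPA untreated cells. DUSP1 had 45.2 and 45.4 CPM in siControl progestin cells and 8.85 and 8.47 CPM in siControl untreated cells. The untreated libraries lay close together and the progestin libraries apart, so the difference sat mainly in the induced level. The response of DUSP1 was 1.05 ± 0.07 in siCEBPA cells and 2.39 ± 0.07 in siControl cells, a difference of -1.34 ± 0.09 (adjusted p = 7.1e-07), and siCEBPA differed from siControl by -1.13 ± 0.06 with progestin and 0.20 ± 0.07 without. EFNA3, ephrin-A3, a membrane-bound ligand of Eph receptors, had 74.2 and 82.2 CPM in siCEBPA progestin cells and 20.5 and 20 CPM in siCEBPA untreated cells, against 114 and 111 CPM in siControl progestin cells and 11.3 and 11.5 CPM in siControl untreated cells. As at NES, its basal level was higher and its induced level lower in siCEBPA cells, with a difference of responses of -1.35 ± 0.08 (adjusted p = 2.44e-07). CRYAB, the small heat shock protein αB-crystallin, had 9.27 and 9.79 CPM in siCEBPA progestin cells against 25 and 28.3 CPM in siControl progestin cells, with 1.74 and 2.01 CPM in untreated siCEBPA cells against 2.14 and 2.42 CPM in untreated siControl cells. The response of CRYAB differed by -1.18 ± 0.16 (adjusted p = 0.00026), and siCEBPA differed from siControl by -1.48 ± 0.09 with progestin and -0.30 ± 0.13 without, of which only the value with progestin was called. VAT1L had responses of 1.72 against 2.92 and a difference of -1.19 ± 0.29 (adjusted p = 0.02), which was not called without siCEBPA untreated replicate 1 (adjusted p = 0.112), siControl progestin replicate 1 (adjusted p = 0.0578), siControl progestin replicate 2 (adjusted p = 0.0791) or siControl untreated replicate 2 (adjusted p = 0.219).

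A response to progestin seen in siControl cells alone was found at 83 raised genes. FRMD8, a partner of the iRhom proteins that carry the sheddase ADAM17, had 39.6 and 42.7 CPM in siCEBPA progestin cells and 39.1 and 39.1 CPM in siCEBPA untreated cells. FRMD8 had 105 and 105 CPM in siControl progestin cells and 62.8 and 67 CPM in siControl untreated cells. In siCEBPA cells the progestin and untreated libraries stood side by side, while in siControl cells both progestin libraries were above both untreated ones. FRMD8 responded by 0.07 ± 0.05 in siCEBPA cells and 0.69 ± 0.05 in siControl cells, a difference of -0.62 ± 0.07 (adjusted p = 9.15e-05), with siCEBPA lower at both states (-1.35 ± 0.05 with progestin and -0.73 ± 0.05 without). UNKL, a zinc finger protein of the Unkempt family, behaved likewise in its values, with responses of 0.10 ± 0.08 in siCEBPA cells and 0.77 ± 0.07 in siControl cells and a difference of -0.68 ± 0.11 (adjusted p = 0.000785). TRIM2, an E3 ubiquitin ligase, reached the same class from the other side, being higher in siCEBPA cells (0.37 ± 0.08 with progestin and 1.28 ± 0.08 without). Its response was -0.08 against 0.83, a difference of -0.91 ± 0.12 (adjusted p = 0.000196); the small siCEBPA value was itself called with upper quartile scaling (-0.21, adjusted p = 0.0372) and with no scaling factors (-0.24, adjusted p = 0.0168), which makes it reversed there. The pseudogene ZNF702P (-0.19 against 0.53, difference -0.72 ± 0.13, adjusted p = 0.00239) is uncertain, since related zinc finger genes may take part of its reads.

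The weakened responses that progestin lowered included PTGER4, ARSJ, CD22, GASK1B and SORBS2, of which all but GASK1B kept more RNA with hormone in siCEBPA than in siControl cells. STMND1, whose difference was larger (1.47 ± 0.26, adjusted p = 0.00594), had 5.52 and 3.7 CPM in siCEBPA progestin cells against 1.17 and 1.06 CPM in siControl progestin cells and was not called without siControl progestin replicate 1 (adjusted p = 0.0544) or siControl progestin replicate 2 (adjusted p = 0.0663). PTGER4, the EP4 receptor for prostaglandin E2, had 10.7 and 11.7 CPM in siCEBPA progestin cells and 18.7 and 20 CPM in siCEBPA untreated cells, against 4.78 and 5.83 CPM in siControl progestin cells and 23.2 and 22.6 CPM in siControl untreated cells (difference 1.32 ± 0.13, adjusted p = 1.25e-05). ARSJ, a member of the arylsulfatase family, showed a displacement of the induced level only. It had 17.7 and 14.9 CPM in siCEBPA progestin cells against 6.56 and 6.43 CPM in siControl progestin cells, and 30.4 and 32.9 CPM in siCEBPA untreated cells against 30.5 and 31.3 CPM in siControl untreated cells, a difference of responses of 1.29 ± 0.12 (adjusted p = 6.18e-06) with siCEBPA against siControl at 1.33 ± 0.09 with progestin and 0.03 ± 0.08 without. The same held for CD22, a sialic acid-binding lectin known from B cells, with 3.39 and 4.26 CPM in siCEBPA progestin cells against 1.5 and 1.39 CPM in siControl progestin cells and a difference of 1.27 ± 0.19 (adjusted p = 0.000553).

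GASK1B (chr4:158124474-158173318), a Golgi-associated kinase-like protein, gave the opposite picture, a basal level that was already low. It stood at 30.7 and 31.3 CPM in siCEBPA progestin cells and 31.8 and 31.4 CPM in siCEBPA untreated cells. GASK1B had 30.9 and 33 CPM in siControl progestin cells and 81.7 and 81.5 CPM in siControl untreated cells. The siControl untreated libraries alone were high, and the other 6 lay together. Its response was -0.03 ± 0.06 in siCEBPA cells and -1.35 ± 0.05 in siControl cells, a difference of 1.32 ± 0.08 (adjusted p = 1.72e-07), and siCEBPA differed from siControl by -0.04 ± 0.06 with progestin and -1.37 ± 0.05 without. With upper quartile scaling and with no scaling factors the siCEBPA response of GASK1B was called at -0.16 and -0.19 (adjusted p = 0.0202 and 0.00656), which makes it attenuated rather than lost. SORBS2, an adaptor protein of the actin cytoskeleton, stood at 17.2 and 17.5 CPM in siCEBPA progestin cells and 17.1 and 17.6 CPM in siCEBPA untreated cells. SORBS2 had 10.6 and 10.1 CPM in siControl progestin cells and 26.2 and 25.9 CPM in siControl untreated cells. The siCEBPA libraries of both hormone states lay at 1 intermediate level, between the siControl progestin libraries below and the siControl untreated libraries above. SORBS2 responded by 0.00 ± 0.07 in siCEBPA cells and -1.33 ± 0.07 in siControl cells, a difference of 1.33 ± 0.10 (adjusted p = 9.9e-07), with siCEBPA higher with progestin and lower without it (0.74 ± 0.07 with progestin and -0.59 ± 0.07 without); with no scaling factors its siCEBPA response was called at -0.16 (adjusted p = 0.0467). ADRA2A, the alpha-2A adrenergic receptor, had responses of 0.20 ± 0.12 in siCEBPA cells and -1.11 ± 0.12 in siControl cells and a difference of 1.31 ± 0.17 (adjusted p = 0.000196).

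The enhanced responses that progestin raised were led by GABRQ, PKP1, FAXDC2, RASD2 and CHRM4. PKP1 (chr1:201283452-201332993), the desmosomal plaque protein plakophilin 1, stood at 34.5 and 36.2 CPM in siCEBPA progestin cells and 0.456 and 0.57 CPM in siCEBPA untreated cells. PKP1 had 17.4 and 17.9 CPM in siControl progestin cells and 1.03 and 0.927 CPM in siControl untreated cells. Every progestin library was far above the untreated ones, and the siCEBPA libraries were the lowest without hormone and the highest with it. Its response was 6.11 ± 0.12 in siCEBPA cells and 4.19 ± 0.10 in siControl cells, a difference of 1.91 ± 0.18 (adjusted p = 1.16e-05), and siCEBPA differed from siControl at both states with opposite signs. GABRQ, the theta subunit of the GABA-A receptor, had 5.51 and 5.64 CPM in siCEBPA progestin cells and 0.559 and 0.57 CPM in siCEBPA untreated cells. GABRQ had 2.22 and 2.17 CPM in siControl progestin cells and 1.03 and 0.848 CPM in siControl untreated cells. It shared the pattern of PKP1, with a difference of 2.04 ± 0.24 (adjusted p = 8.55e-05), the largest size among enhanced genes named by the rule. RASD2, the small GTPase Rhes, had responses of 4.19 ± 0.11 in siCEBPA cells and 2.45 ± 0.10 in siControl cells (difference 1.74 ± 0.15, adjusted p = 4.23e-06), and CHRM4, the muscarinic M4 receptor, responses of 3.80 ± 0.16 in siCEBPA cells and 2.13 ± 0.17 in siControl cells (difference 1.67 ± 0.25, adjusted p = 0.000572). At CHRM4 the induced level alone was displaced, with 15.5 and 16.2 CPM in siCEBPA progestin cells against 4.35 and 4.72 CPM in siControl progestin cells. FAXDC2 (difference 1.87 ± 0.38, adjusted p = 0.00588) was not called without siCEBPA untreated replicate 1 (difference 1.33, adjusted p = 0.0856), in a group where it had only 0.0736 and 0.19 CPM.

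A rise seen in siCEBPA cells alone was found at 96 genes. STEAP4 (chr7:88270892-88306891), a metalloreductase of endosomes and the plasma membrane, stood at 14 and 12.1 CPM in siCEBPA progestin cells and 3.47 and 3.56 CPM in siCEBPA untreated cells. STEAP4 had 11.1 and 10.1 CPM in siControl progestin cells and 11.1 and 10.9 CPM in siControl untreated cells. The siCEBPA untreated libraries alone were low, and the other 6 lay far above them. The response of STEAP4 was 1.89 ± 0.10 in siCEBPA cells and -0.05 ± 0.09 in siControl cells, a difference of 1.94 ± 0.14 (adjusted p = 7.1e-07), and siCEBPA differed from siControl by 0.30 ± 0.09 with progestin and -1.64 ± 0.10 without. STEAP4 and GASK1B were thus alike in that the basal level differed between siCEBPA and siControl cells by far more than the induced level, and unlike in whether the hormone moved siControl cells. SGK1, a kinase that steroid hormones induce in many tissues, had 4.87 and 4.47 CPM in siCEBPA progestin cells and 1.44 and 1.2 CPM in siCEBPA untreated cells. SGK1 had 2.61 and 2.74 CPM in siControl progestin cells and 2.53 and 2.13 CPM in siControl untreated cells. The 4 siControl libraries of SGK1 lay close together while the siCEBPA libraries stood above them with progestin and below them without, and the difference was 1.60 ± 0.22 (adjusted p = 0.000235) with siCEBPA higher with progestin and lower without it (0.80 ± 0.14 with progestin and -0.79 ± 0.16 without). MYCL, a transcription factor of the MYC family, had 19.4 and 19.4 CPM in siCEBPA progestin cells and 8.86 and 9.66 CPM in siCEBPA untreated cells, against 6.83 and 6.17 CPM in siControl progestin cells and 5.96 and 6.13 CPM in siControl untreated cells (difference 0.96 ± 0.12, adjusted p = 0.000151). SOX4, a transcription factor of progenitor and tumour cells, had responses of 1.04 ± 0.06 in siCEBPA cells and 0.07 ± 0.06 in siControl cells (difference 0.97 ± 0.08, adjusted p = 3.78e-06), and PRKAR2B, a regulatory subunit of protein kinase A, of 1.43 ± 0.10 in siCEBPA cells and 0.22 ± 0.10 in siControl cells (difference 1.21 ± 0.15, adjusted p = 9.11e-05). ABCA1, the pump that hands cholesterol to lipoproteins, responded by 1.31 ± 0.12 in siCEBPA cells and 0.29 ± 0.12 in siControl cells (difference 1.02 ± 0.17, adjusted p = 0.0014), and its small siControl response was itself called with DESeq2 size factors (0.31, adjusted p = 0.0369).

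Strengthened falls were fewer, and 2 of the 5 leading enhanced ones are brakes on ERK signalling. DUSP6 (chr12:89347232-89353271), the phosphatase that inactivates ERK, stood at 0.86 and 1.4 CPM in siCEBPA progestin cells and 29 and 28.1 CPM in siCEBPA untreated cells. DUSP6 had 3.47 and 4.0 CPM in siControl progestin cells and 33.5 and 35.8 CPM in siControl untreated cells. Progestin brought it down in both, and the siCEBPA progestin libraries were the lowest of all. Its response was -4.67 ± 0.13 in siCEBPA cells and -3.22 ± 0.11 in siControl cells, a difference of -1.45 ± 0.19 (adjusted p = 0.000235), with siCEBPA against siControl at -1.74 ± 0.16 with progestin and -0.28 ± 0.09 without. The fall of DUSP6 was stronger as a fold only, and its fall in CPM was the smaller in siCEBPA cells. SPRY2, Sprouty 2, an inhibitor of receptor tyrosine kinase signalling, had 3.64 and 4.13 CPM in siCEBPA progestin cells and 19 and 17.8 CPM in siCEBPA untreated cells. SPRY2 had 6.93 and 6.66 CPM in siControl progestin cells and 12.8 and 14 CPM in siControl untreated cells. Its difference of responses was -1.26 ± 0.13 (adjusted p = 2.64e-05). ARID5B, a DNA-binding protein of the ARID family, had the largest size of these. It stood at 6.12 and 5.87 CPM in siCEBPA progestin cells and 28.6 and 28.8 CPM in siCEBPA untreated cells. ARID5B had 9.06 and 9.52 CPM in siControl progestin cells and 14.1 and 14.2 CPM in siControl untreated cells. Untreated siCEBPA cells held more ARID5B RNA than siControl cells and treated ones less, by -0.63 ± 0.08 with progestin and 1.02 ± 0.07 without, and the difference of responses was -1.65 ± 0.11 (adjusted p = 3.18e-07). EFNB2, ephrin-B2 (-1.16 ± 0.21, adjusted p = 0.00284), and TGFB2, transforming growth factor beta 2 (-1.11 ± 0.19, adjusted p = 0.00219), had differences of the same sign. Falls called in siCEBPA cells alone were found at 55 genes, among them MEGF9, a membrane protein with EGF-like domains (-0.73 against -0.05, difference -0.68 ± 0.08, adjusted p = 8.26e-05), and PIK3C2B, a class II PI 3-kinase (-0.65 against -0.04, difference -0.61 ± 0.08, adjusted p = 0.000257). With upper quartile scaling the siControl responses of MEGF9 and PIK3C2B were called too, at -0.16 and -0.15 (adjusted p = 0.0192 and 0.0358).

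Reversed responses were mostly of modest size: the median was -0.23 in siCEBPA cells against 0.27 in siControl cells for 39 genes, and 0.30 against -0.29 for the other 46, and 19 of the 85 had a difference of 2-fold or more. PKP2 (chr12:32790745-32896840), the plakophilin of simple epithelia and heart, had the largest size among reversed genes named by the rule. It stood at 27.6 and 29.1 CPM in siCEBPA progestin cells and 58.2 and 58.2 CPM in siCEBPA untreated cells. PKP2 had 52.2 and 51.1 CPM in siControl progestin cells and 38.4 and 37 CPM in siControl untreated cells. In siCEBPA cells both progestin libraries lay below both untreated ones, and in siControl cells both lay above them. The response of PKP2 was -1.04 ± 0.05 in siCEBPA cells and 0.46 ± 0.05 in siControl cells, a difference of -1.49 ± 0.08 (adjusted p = 5.22e-08), with siCEBPA against siControl at -0.87 ± 0.05 with progestin and 0.63 ± 0.05 without. PKP1 and PKP2, which encode related desmosomal proteins, thus had differences of opposite sign. HOXC11, a homeobox transcription factor, had 17.7 and 19.7 CPM in siCEBPA progestin cells and 26.3 and 23.5 CPM in siCEBPA untreated cells. HOXC11 had 44.6 and 38 CPM in siControl progestin cells and 25.6 and 24.1 CPM in siControl untreated cells. Its untreated libraries stood together and its progestin libraries apart, with responses of -0.42 against 0.74 and a difference of -1.15 ± 0.12 (adjusted p = 3.83e-05). MLLT11 (-0.44 against 0.65, difference -1.08 ± 0.14, adjusted p = 0.000185) and the ephrin receptor EPHA2 (-0.32 against 0.53, difference -0.85 ± 0.13, adjusted p = 0.00049) also fell with progestin in siCEBPA cells and rose in siControl cells.

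In the other direction, CHAC1 (chr15:40952962-40956519), an enzyme that degrades glutathione and is induced by amino acid stress, stood at 5.11 and 5.31 CPM in siCEBPA progestin cells and 3.69 and 3.77 CPM in siCEBPA untreated cells. CHAC1 had 11.6 and 13 CPM in siControl progestin cells and 20.1 and 23.9 CPM in siControl untreated cells. The gene was low in all 4 siCEBPA libraries, where progestin raised it, and high in all 4 siControl libraries, where progestin lowered it. Its response was 0.48 ± 0.12 in siCEBPA cells and -0.85 ± 0.09 in siControl cells, a difference of 1.33 ± 0.15 (adjusted p = 4.47e-05), with siCEBPA against siControl at -1.23 ± 0.10 with progestin and -2.57 ± 0.10 without. RBM24, an RNA-binding protein of muscle, had 15.6 and 17 CPM in siCEBPA progestin cells and 11.5 and 9.69 CPM in siCEBPA untreated cells, against 20.4 and 21.9 CPM in siControl progestin cells and 33.7 and 38 CPM in siControl untreated cells (difference 1.39 ± 0.13, adjusted p = 8.03e-06). Like CHAC1 it was lower in siCEBPA cells at both states, more so without hormone. AKAP12, a scaffold for protein kinase A, was instead higher in siCEBPA cells at both states (1.95 ± 0.11 with progestin and 0.61 ± 0.10 without), with responses of 0.45 against -0.88 and a difference of 1.33 ± 0.14 (adjusted p = 3.92e-05). RASGRP1, an exchange factor that activates Ras, had responses of 0.97 against -0.36 (difference 1.33 ± 0.13, adjusted p = 1.49e-05). NR5A2, the nuclear receptor LRH-1, had responses of 0.44 against -0.97 (difference 1.41 ± 0.17, adjusted p = 9.48e-05), of which the siCEBPA rise was not called with no scaling factors (0.27, adjusted p = 0.0634). At the prolactin receptor PRLR (0.18 against -0.29, difference 0.47 ± 0.06, adjusted p = 0.000217) and at ATF3 (0.28 against -0.45, difference 0.73 ± 0.11, adjusted p = 0.000674) the siCEBPA rise was not called with upper quartile scaling (adjusted p = 0.376 and 0.103).

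**Figure D4:**
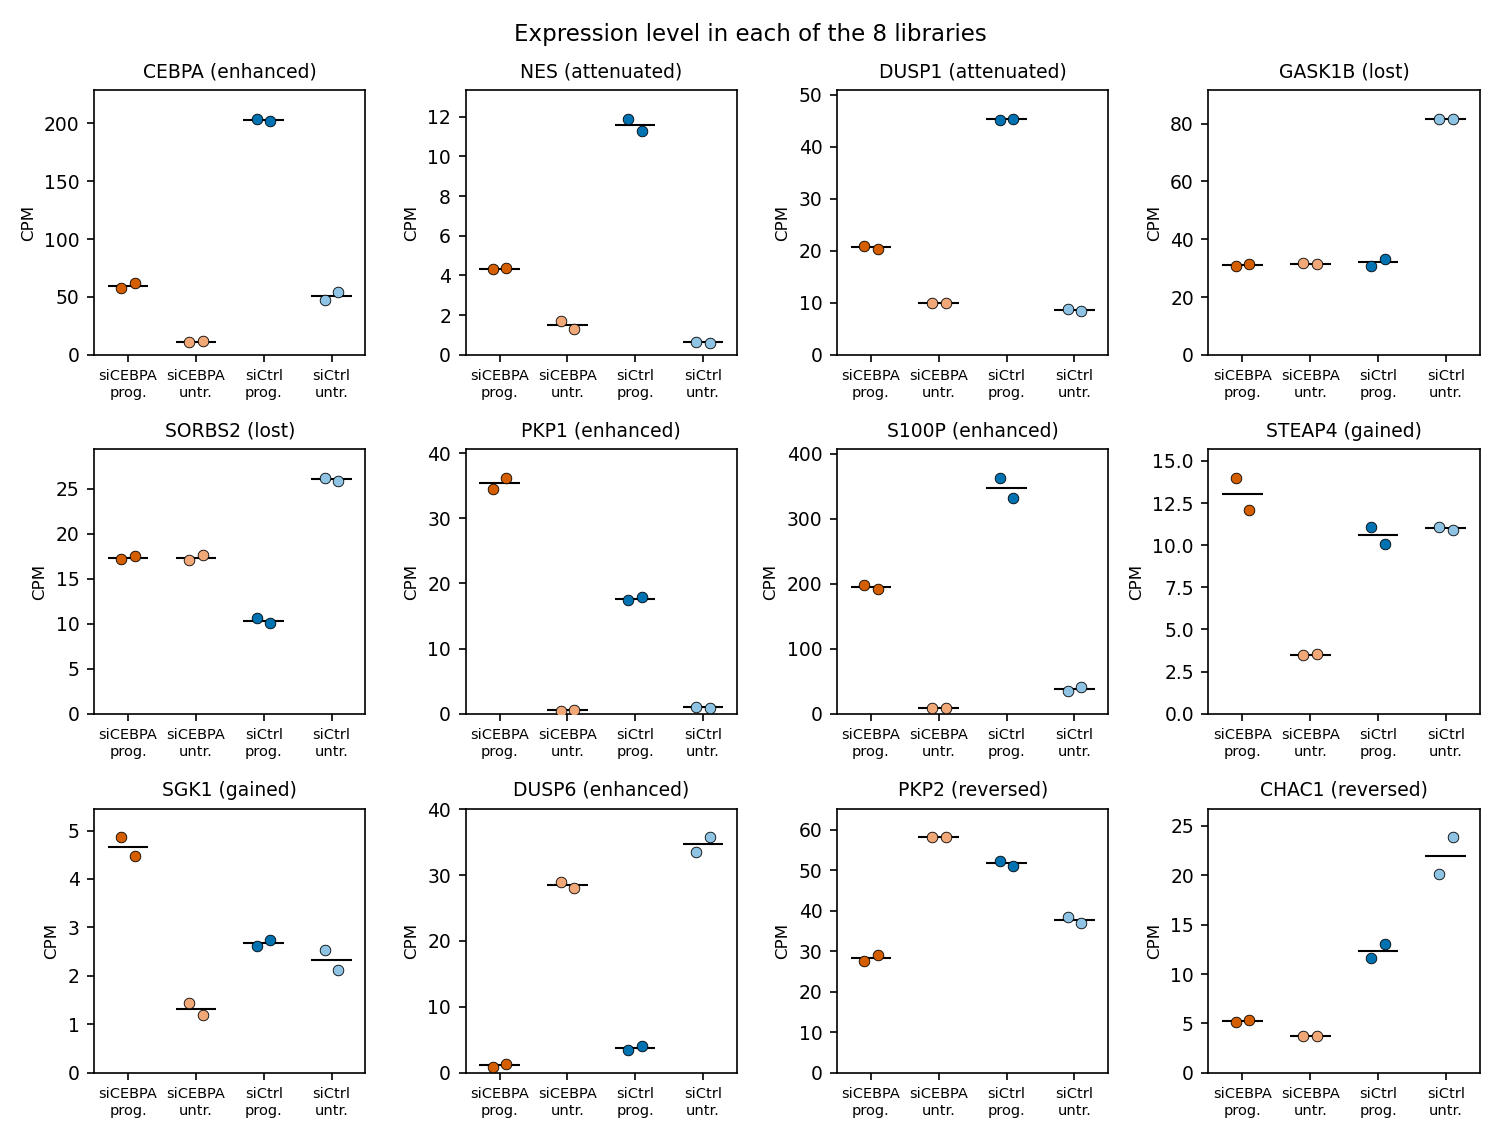
CPM of 12 genes (vertical axes, each from 0) in each of the 8 libraries (points), with bars at the mean of the 2 libraries of a group; siCEBPA groups stand left of siControl groups and progestin left of untreated. The spread within a group is small beside the largest gap between groups of the same gene. Some groups overlap, such as siControl progestin and siControl untreated at STEAP4. GASK1B, STEAP4 and DUSP1 each have 1 group that stands apart: siControl untreated (81.7 and 81.5 CPM), siCEBPA untreated (3.47 and 3.56 CPM) and siControl progestin (45.2 and 45.4 CPM).

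Promoters are shown for STEAP4 and SGK1, strengthened genes whose promoter holds C/EBP letters and whose basal level was lower in siCEBPA cells, and for GASK1B, whose basal level was lower too and whose promoter holds none, and the 3 were chosen after their values were seen. Each sequence runs from 250 bases before to 50 bases after the start in RefSeq on GRCh38.p14, in the direction of the gene, with a match to the letters TTGCNNAA on either strand in capitals:

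STEAP4 promoter, chr7:88306845-88307144, minus strand: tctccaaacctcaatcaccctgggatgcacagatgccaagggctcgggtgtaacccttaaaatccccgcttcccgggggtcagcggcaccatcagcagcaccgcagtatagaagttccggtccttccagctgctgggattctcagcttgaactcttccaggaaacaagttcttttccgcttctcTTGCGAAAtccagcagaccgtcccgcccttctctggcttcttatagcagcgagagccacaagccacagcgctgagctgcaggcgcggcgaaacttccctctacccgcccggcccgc

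SGK1 promoter, chr6:134318063-134318362, minus strand: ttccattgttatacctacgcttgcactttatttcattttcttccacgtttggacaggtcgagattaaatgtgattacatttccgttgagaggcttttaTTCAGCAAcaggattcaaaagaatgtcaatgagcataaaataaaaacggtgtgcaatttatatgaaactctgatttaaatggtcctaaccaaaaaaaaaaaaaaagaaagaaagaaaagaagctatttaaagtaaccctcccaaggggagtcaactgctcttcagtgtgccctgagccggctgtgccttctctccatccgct

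GASK1B promoter, chr4:158172976-158173275, minus strand: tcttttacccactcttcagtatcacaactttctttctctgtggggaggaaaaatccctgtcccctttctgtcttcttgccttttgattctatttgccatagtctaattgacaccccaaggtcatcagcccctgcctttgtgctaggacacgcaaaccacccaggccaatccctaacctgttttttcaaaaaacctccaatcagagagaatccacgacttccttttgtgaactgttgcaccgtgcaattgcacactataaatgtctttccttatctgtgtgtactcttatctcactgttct

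The match of STEAP4 began at -66 and that of SGK1, which is read on the other strand, at -152 from the start. A promoter of 300 bases was found for 12321 of the 18351 genes tested and for 129 of the 152 genes that the naming rule or a later choice took. The letters stood in 7.22% of the 12321 promoters, in 7.41% of 553 promoters of weakened genes, in 7.3% of 411 of strengthened genes and in 7.24% of 11294 of genes that were not called. Among the 63 promoters of reversed genes 0 held them, where a count of 0 allows a share of up to 4.76% (3 counts, counting error only). The half-site letters TGTTCT of steroid receptors, also searched on both strands, stood in 8.32% of weakened, 8.52% of strengthened, 4.76% of reversed and 9.39% of uncalled promoters. Over all 27305 promoters of the table the shares were 10.6% and 14.9%. A match describes the letters and is no binding site, and no match says nothing of binding elsewhere.

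The gene lists below are read against the 7.24% of all genes called and the median difference of 0.02 over all genes. That share rose with expression level, to 10.4% at 10 to 100 CPM and 15.6% above 100 CPM. The replication and mitosis lists, at 14.7% and 13.3%, lay between those shares. The lists were not matched to other genes by level, so a share above 7.24% may partly follow expression level. Of 38 measured progestin-induced and glucocorticoid-shared genes, 17 were called (44.7%), 14 above 0 and 3 below, with a median of 0.18. Sorted by class, 10 were strengthened, 6 weakened and 1 reversed. The name of the list did not hold for all of the 14 above 0. Among them, AREG, HES1, IGFBP5 and PRLR were lowered by progestin in siControl cells, HES1 with a response of -1.36 and IGFBP5 with -1.32. SGK1 had no called response in siControl cells. The difference of HES1 was not called without siCEBPA untreated replicate 1, siControl progestin replicate 1, siControl progestin replicate 2 or siControl untreated replicate 2. The metabolic stress gene NDRG1 had 69 and 72.6 CPM in siCEBPA progestin cells and 5.68 and 5.61 CPM in siCEBPA untreated cells. NDRG1 had 46.2 and 43 CPM in siControl progestin cells and 8.68 and 10.1 CPM in siControl untreated cells. The siCEBPA libraries of NDRG1 were the lowest without hormone and the highest with it, and its responses of 3.65 against 2.24 differed by 1.41 ± 0.11 (adjusted p = 1.44e-06). S100P, a small calcium-binding protein, had 198 and 192 CPM in siCEBPA progestin cells and 8.48 and 9.2 CPM in siCEBPA untreated cells. S100P had 363 and 332 CPM in siControl progestin cells and 35.6 and 41.9 CPM in siControl untreated cells. It was lower in siCEBPA cells at both states but rose by a larger fold there (4.46 against 3.16, difference 1.31 ± 0.11, adjusted p = 2.74e-05), while its gain in CPM was the smaller. STAT5A, a signal transducer of prolactin, had responses of 1.64 against 0.81 (difference 0.83 ± 0.12, adjusted p = 0.000416). DUSP1 and FKBP5, an immunophilin that holds back steroid receptor activity, were 2 of the 3 below 0, FKBP5 by -0.30 ± 0.06 (adjusted p = 0.00531) with responses of 2.35 against 2.65. The gain of FKBP5 in CPM was nonetheless the larger in siCEBPA cells. TSC22D3, the glucocorticoid-induced leucine zipper GILZ, was not called, with responses of 3.93 against 4.02 and a difference of -0.09 ± 0.07 (adjusted p = 0.57). Genes of the list were therefore displaced in both directions, and without siControl progestin replicate 1 the list had 11 calls, 9 above 0 and 2 below.

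Of 31 genes of ERK feedback and immediate early transcription, 9 were called (29.0%), 3 above 0 and 6 below, with a median of -0.06. Besides DUSP6 and SPRY2, the immediate early factor FOS had 0.452 and 0.858 CPM in siCEBPA progestin cells and 3.3 and 3.09 CPM in siCEBPA untreated cells, against 1.55 and 1.42 CPM in siControl progestin cells and 2.74 and 2.52 CPM in siControl untreated cells (difference -1.48 ± 0.30, adjusted p = 0.00524). Each of these genes was lower in siCEBPA cells with progestin, and the siCEBPA progestin libraries of FOS lay below all others. DUSP5 was also called below 0 (difference -0.75 ± 0.16, edgeR adjusted p = 0.00854), with a difference of -0.6 without siControl progestin replicate 2. The list members DUSP4, SPRY1, SPRY4, SPRED1 and SPRED2 were not called. KLF6, a zinc finger factor induced by growth signals, was weakened (-0.84 against -1.41, difference 0.57 ± 0.08, adjusted p = 0.000423), and KLF10 was reversed (-0.39 against 0.22, difference -0.61 ± 0.10, adjusted p = 0.000779), though with upper quartile scaling its siControl rise was not called (adjusted p = 0.171). Among 11 measured EGF ligands and ERBB receptors 3 were called (27.3%), 1 above 0 and 2 below, with a median of 0.02. AREG, the ligand amphiregulin, had 4.21 and 4.42 CPM in siCEBPA progestin cells and 6.78 and 6.6 CPM in siCEBPA untreated cells. AREG had 3.73 and 3.64 CPM in siControl progestin cells and 10.7 and 10.8 CPM in siControl untreated cells. The fall of AREG with progestin was weaker in siCEBPA cells (-0.63 against -1.55, difference 0.91 ± 0.14, adjusted p = 0.000609). The receptors ERBB2 (-0.52 against -0.23, difference -0.30 ± 0.06, adjusted p = 0.00731) and ERBB3 (-0.48 against -0.09, difference -0.38 ± 0.05, adjusted p = 0.00031) had stronger falls there.

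Of 34 DNA replication and G1/S genes 5 were called above 0 (14.7%) and 0 below by edgeR, which at an unadjusted p under 0.05 found 13 and 1, while DESeq2 and limma-voom each found 5 and 0. The median of the list was 0.16. Without siCEBPA untreated replicate 2 or siControl untreated replicate 1 the list was also called below 0. For 4 of the 5 called genes the response was a weakened fall. UHRF1, which recruits DNA methyltransferase to newly made DNA, had 25.2 and 28.9 CPM in siCEBPA progestin cells and 28.8 and 26.9 CPM in siCEBPA untreated cells. UHRF1 had 24.6 and 27.5 CPM in siControl progestin cells and 42.7 and 37.6 CPM in siControl untreated cells. Its siControl untreated libraries stood above the other 6, with responses of -0.04 against -0.62 and a difference of 0.58 ± 0.12 (adjusted p = 0.00662) that was not called without siControl progestin replicate 1 (adjusted p = 0.0625). CCND1, cyclin D1, the exception, had 309 and 295 CPM in siCEBPA progestin cells and 166 and 170 CPM in siCEBPA untreated cells. CCND1 had 283 and 306 CPM in siControl progestin cells and 211 and 227 CPM in siControl untreated cells. It rose more in siCEBPA cells (0.84 against 0.43, difference 0.42 ± 0.07, adjusted p = 0.00106) and differed between siCEBPA and siControl by 0.04 ± 0.05 with progestin and -0.38 ± 0.05 without. Of 30 mitosis and G2/M genes 4 were called above 0 (13.3%) and 0 below, with 15 and 0 at an unadjusted p under 0.05, 5 and 0 by DESeq2 and 3 and 0 by limma-voom, and a median of 0.18. KIF23, a kinesin of cytokinesis, had responses of -0.01 against -0.36 and a difference of 0.35 ± 0.07 (adjusted p = 0.00614), which was not called without siControl progestin replicate 1 (adjusted p = 0.0563). TOP2A, DNA topoisomerase II alpha, was not called (difference 0.22 ± 0.09, adjusted p = 0.179), nor were its paralogue TOP2B (0.02 ± 0.07, adjusted p = 0.923) and the cohesin subunit RAD21 (0.10 ± 0.07, adjusted p = 0.492). Calls in these lists depended on single libraries: without siControl progestin replicate 1 they numbered 1 for replication and 0 for mitosis, and without siCEBPA untreated replicate 1 they numbered 8 and 10. The mitosis list had 7 calls without siCEBPA progestin replicate 2, where the replication list had 3. It had 1 call without siCEBPA untreated replicate 2, and 2 each without siControl progestin replicate 2 and siControl untreated replicate 1.

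Of 20 CDK inhibitor and antiproliferative genes, 8 were called (40.0%), 4 above 0 and 4 below, with a median of 0.05. CDKN1A, the inhibitor p21, had 211 and 219 CPM in siCEBPA progestin cells and 133 and 131 CPM in siCEBPA untreated cells. CDKN1A had 291 and 294 CPM in siControl progestin cells and 208 and 223 CPM in siControl untreated cells. It was lower in siCEBPA cells at both states and rose there by a larger fold (0.70 against 0.44, difference 0.26 ± 0.06, adjusted p = 0.0124), which was not called without siControl progestin replicate 1 (adjusted p = 0.0807), siControl progestin replicate 2 (adjusted p = 0.0551) or siControl untreated replicate 2 (adjusted p = 0.0707). BTG1, an antiproliferative protein, fell more in siCEBPA cells (-1.49 against -1.11, difference -0.38 ± 0.07, adjusted p = 0.00267), and its relative BTG2 rose less (1.32 against 1.75, difference -0.43 ± 0.10, adjusted p = 0.0114), though BTG2 was not called without siControl progestin replicate 1 (adjusted p = 0.0786). The list had 3 calls without siControl progestin replicate 1, siControl progestin replicate 2 or siControl untreated replicate 2, and 5 without siCEBPA untreated replicate 1. Of 22 p53 targets 6 were called (27.3%), 5 above 0 and 1 below, with a median of 0.11. RRM2B, the p53-induced subunit of ribonucleotide reductase, had 165 and 159 CPM in siCEBPA progestin cells and 60.6 and 58.5 CPM in siCEBPA untreated cells, against 138 and 144 CPM in siControl progestin cells and 78.7 and 75.3 CPM in siControl untreated cells (difference 0.57 ± 0.06, adjusted p = 5.5e-05). The death receptor TNFRSF10B had responses of 0.89 against 0.51 (difference 0.38 ± 0.07, adjusted p = 0.00308), and both genes had a lower basal level in siCEBPA cells. The p53 list had 2 calls without siControl progestin replicate 1 and 3 without siControl progestin replicate 2 or siControl untreated replicate 2.

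The list of C/EBP family and Tribbles genes had 8 measured members, and 3 were called above 0 (37.5%), CEBPA, CEBPB and CEBPG, and 0 below, where edgeR found 5 and 2 at an unadjusted p under 0.05, DESeq2 4 and 0, and limma-voom 3 and 0. The median was 0.38. CEBPB, which encodes the related C/EBPβ, had 11.2 and 11.8 CPM in siCEBPA progestin cells and 4.4 and 4.2 CPM in siCEBPA untreated cells. CEBPB had 22 and 20.8 CPM in siControl progestin cells and 11.1 and 12.4 CPM in siControl untreated cells. Like CEBPA it was lower in siCEBPA cells at both states and had the larger fold response there (1.42 against 0.86, difference 0.55 ± 0.12, adjusted p = 0.0101), which was not called without siControl progestin replicate 2 (adjusted p = 0.0607) or siControl untreated replicate 2 (adjusted p = 0.0509). The gains of CEBPA and CEBPB in CPM were each the smaller in siCEBPA cells. CEBPG, a family member without an activation domain, had responses of 1.25 against 0.79 (difference 0.46 ± 0.07, adjusted p = 0.000561), and its level differed between siCEBPA and siControl by 0.05 ± 0.05 with progestin and -0.41 ± 0.05 without. The list had 1 call without siControl progestin replicate 2 or siControl untreated replicate 2, and 5 without siControl untreated replicate 1. Of 22 genes of amino acid and unfolded protein stress, 9 were called (40.9%), 7 above 0 and 2 below, with a median of 0.15. Besides CHAC1, the amino acid transporter SLC7A5 was lower in siCEBPA cells at both states (-0.77 ± 0.08 with progestin and -1.41 ± 0.08 without) with responses of 0.29 against -0.35 and a difference of 0.64 ± 0.11 (adjusted p = 0.00819), which was not called without siCEBPA untreated replicate 1 (adjusted p = 0.073) or siControl progestin replicate 1 (adjusted p = 0.0713). The chaperones of the endoplasmic reticulum DNAJB9 (0.97 against 1.49, difference -0.52 ± 0.08, adjusted p = 0.00103) and PDIA4 (0.24 against 0.61, difference -0.37 ± 0.06, adjusted p = 0.00107) had weaker rises. The median of the stress list was -0.63 for siCEBPA against siControl with progestin and -0.74 untreated, against 0.02 and 0.01 over all genes, so the list stood low in siCEBPA cells at both states. It had 5 calls without siControl progestin replicate 1.

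With all libraries in the fit, cholesterol and fatty acid genes were called on 1 side of 0 only. For the fatty acid list this did not hold without siCEBPA progestin replicate 2. Of 22 measured genes of cholesterol synthesis and uptake, 5 were called below 0 (22.7%) and 0 above, and at an unadjusted p under 0.05 there were 10 below and 1 above. DESeq2 found 7 and 0, limma-voom 5 and 0, and the median was -0.17. STARD4, a carrier of sterols, had 87.7 and 86.1 CPM in siCEBPA progestin cells and 62.7 and 59.3 CPM in siCEBPA untreated cells. STARD4 had 79.1 and 84.6 CPM in siControl progestin cells and 42.2 and 37.7 CPM in siControl untreated cells. Its basal level was higher in siCEBPA cells and its induced level close in both, with responses of 0.51 against 1.04 and a difference of -0.53 ± 0.08 (adjusted p = 0.000736). DHCR7, the last enzyme of cholesterol synthesis, differed in the induced level instead, with 324 and 345 CPM in siCEBPA progestin cells against 449 and 432 CPM in siControl progestin cells (difference -0.41 ± 0.07, adjusted p = 0.00149). IDI1, an isomerase of the pathway, had responses of 0.25 against 0.62 (difference -0.37 ± 0.07, adjusted p = 0.00536), and the list had 3 calls without siControl progestin replicate 2. Of 19 measured genes of fatty acid synthesis and fat storage, 4 were called below 0 (21.1%) and 0 above, with 6 and 2 at an unadjusted p under 0.05, 5 and 0 by DESeq2 and 5 and 0 by limma-voom, and a median of 0.06, the opposite sign to its calls. SCD, the desaturase that makes oleate, had 3540 and 3340 CPM in siCEBPA progestin cells and 1910 and 1740 CPM in siCEBPA untreated cells. SCD had 4680 and 4720 CPM in siControl progestin cells and 2080 and 1950 CPM in siControl untreated cells. It rose less in siCEBPA cells (0.92 against 1.22, difference -0.30 ± 0.07, adjusted p = 0.0121), which was not called without siControl progestin replicate 2 (adjusted p = 0.0638) or siControl untreated replicate 2 (adjusted p = 0.0533). The fatty acid list had 1 call without siCEBPA untreated replicate 1, siControl progestin replicate 1, siControl progestin replicate 2 or siControl untreated replicate 2, and 2 without siCEBPA untreated replicate 2.

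The oestrogen-responsive list had 13 of 25 genes called (52.0%), 10 above 0 and 3 below, with a median of 0.09, and 11 of the 13 were weakened. PGR (chr11:101029624-101130524), the progesterone receptor gene, had 386 and 377 CPM in siCEBPA progestin cells and 855 and 844 CPM in siCEBPA untreated cells. PGR had 268 and 277 CPM in siControl progestin cells and 984 and 970 CPM in siControl untreated cells. The siCEBPA libraries were the higher with progestin and the lower without it, and the groups did not overlap. The fall of PGR was weaker in siCEBPA cells, -1.15 ± 0.04 in siCEBPA cells and -1.84 ± 0.04 in siControl cells, a difference of 0.69 ± 0.05 (adjusted p = 1.44e-06). IGFBP4, which sequesters insulin-like growth factors, had 414 and 440 CPM in siCEBPA progestin cells and 822 and 848 CPM in siCEBPA untreated cells. IGFBP4 had 118 and 109 CPM in siControl progestin cells and 412 and 454 CPM in siControl untreated cells. It was higher in siCEBPA cells at both states, more so with progestin, and its responses of -0.97 against -1.93 differed by 0.96 ± 0.07 (adjusted p = 1.59e-06). The fall of IGFBP4 was thus weaker as a fold, while its fall in CPM was the larger in siCEBPA cells. MYB, a transcription factor that oestrogen keeps up in luminal tumours, had responses of -0.71 against -1.67 (difference 0.95 ± 0.15, adjusted p = 0.00107), and RET, the receptor of GDNF family ligands, rose less in siCEBPA cells (0.22 against 0.91, difference -0.69 ± 0.13, adjusted p = 0.0028). ADCY9, an adenylyl cyclase, was 1 of the 2 strengthened (0.88 against 0.39, difference 0.48 ± 0.08, adjusted p = 0.002).

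Of 23 luminal epithelial genes 8 were called (34.8%), 6 above 0 and 2 below, with 7 weakened and 1 strengthened and a median of 0.01. FOXA1, the pioneer factor that opens chromatin for steroid receptors, had 97.4 and 94.8 CPM in siCEBPA progestin cells and 437 and 428 CPM in siCEBPA untreated cells. FOXA1 had 68.9 and 75.5 CPM in siControl progestin cells and 429 and 449 CPM in siControl untreated cells. It fell steeply in both, less in siCEBPA cells (-2.17 against -2.60, difference 0.43 ± 0.07, adjusted p = 0.000586), and differed between siCEBPA and siControl by 0.41 ± 0.05 with progestin and -0.02 ± 0.05 without. The epithelial ETS factors ELF3 (-1.02 against -1.71, difference 0.69 ± 0.09, adjusted p = 0.000169) and EHF (-1.71 against -2.31, difference 0.60 ± 0.07, adjusted p = 5.28e-05) had weaker falls of the same kind. CLDN4, a tight junction protein, rose less (0.55 against 0.85, difference -0.30 ± 0.05, adjusted p = 0.00239). Of 22 steroid receptors and partners 5 were called (22.7%), 4 above 0 and 1 below, all weakened, with a median of 0.06. ESR1, the oestrogen receptor, fell less in siCEBPA cells (-0.32 against -0.59, difference 0.28 ± 0.06, adjusted p = 0.0125), though not called without siCEBPA untreated replicate 2 (adjusted p = 0.0603), siControl progestin replicate 1 (adjusted p = 0.08) or siControl progestin replicate 2 (adjusted p = 0.0501). The list had 3 calls without siControl progestin replicate 1 or siControl progestin replicate 2.

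Of 15 measured desmosome and cell adhesion genes 8 were called (53.3%), 6 above 0 and 2 below, with a median of 0.14. PKP1 and PKP2 were described above, and PERP, a desmosome-associated membrane protein, had 118 and 105 CPM in siCEBPA progestin cells and 117 and 109 CPM in siCEBPA untreated cells. PERP had 23.8 and 26.1 CPM in siControl progestin cells and 35.9 and 34.9 CPM in siControl untreated cells. PERP was several times higher in all siCEBPA libraries, where progestin did not move it detectably (-0.02 against -0.51, difference 0.49 ± 0.09, adjusted p = 0.00249). With upper quartile scaling its siCEBPA response was called at -0.15 (adjusted p = 0.0345). CDH3, P-cadherin, had 103 and 103 CPM in siCEBPA progestin cells and 122 and 118 CPM in siCEBPA untreated cells, against 42.3 and 42.4 CPM in siControl progestin cells and 67.6 and 68.1 CPM in siControl untreated cells (difference 0.46 ± 0.06, adjusted p = 0.000196). PPL, the plaque linker periplakin, rose steeply in both, less in siCEBPA cells (2.44 against 2.94, difference -0.50 ± 0.07, adjusted p = 0.000235), and the list had 5 calls without siControl progestin replicate 1. CDH3 was also the only call among 17 measured basal and myoepithelial genes (5.88%), whose median was 0.11 and where 2 were called without siCEBPA progestin replicate 1. Of 19 IGF and insulin signalling genes 6 were called above 0 (31.6%) and 0 below, with 7 and 1 at an unadjusted p under 0.05, 6 and 0 by both DESeq2 and limma-voom, and a median of 0.30. Besides IGFBP4, the receptor IGF1R rose more in siCEBPA cells (1.16 against 0.59, difference 0.58 ± 0.07, adjusted p = 0.000103), as did the adaptor GRB10 (1.39 against 0.77, difference 0.62 ± 0.07, adjusted p = 4.47e-05), and the substrate IRS1 fell less (-0.28 against -0.77, difference 0.49 ± 0.08, adjusted p = 0.0017). At IGF1R the basal level was lower in siCEBPA cells (0.06 ± 0.05 with progestin and -0.51 ± 0.05 without), and at GRB10 both levels were higher (1.36 ± 0.05 with progestin and 0.74 ± 0.05 without).

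In 3 lists few differences of responses were called. Each of them held members with an SE above 0.652, the median of genes under 1 CPM, where differences were hard to detect. Few calls in these lists do not show that the responses were alike. Of 18 measured genes of secreted mucosal defence only S100P was called (5.56%) and the median difference was 0.02, although the median of the list was -0.81 for siCEBPA against siControl with progestin and -0.86 untreated. LCN2, the iron-trapping protein lipocalin-2, had 1.06 and 1.07 CPM in siCEBPA progestin cells and 1.18 and 0.998 CPM in siCEBPA untreated cells. LCN2 had 6.46 and 5.5 CPM in siControl progestin cells and 3.9 and 6.38 CPM in siControl untreated cells. Its siCEBPA libraries lay below all siControl libraries, yet the responses of -0.03 against 0.19 were not called apart (difference -0.22 ± 0.35, adjusted p = 0.807), a change of level without a detectable change of response. The mucosal list had 2 calls without siCEBPA progestin replicate 2 or siControl untreated replicate 2. Of 24 interferon-stimulated genes 1 was called (4.17%), IFIT2, with a difference of -0.82 ± 0.19 (adjusted p = 0.019), with a list median of -0.26, and 0 were called without siCEBPA progestin replicate 1, siControl progestin replicate 1 or siControl progestin replicate 2. Without siCEBPA untreated replicate 2 that list had 2 calls. The markers of fibroblasts, endothelium and blood had 11 measured members, and 0 were called by edgeR, DESeq2 or limma-voom, and 2 had an unadjusted p under 0.05 by edgeR, both above 0, with a median of -0.12.

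**Figure D5:**
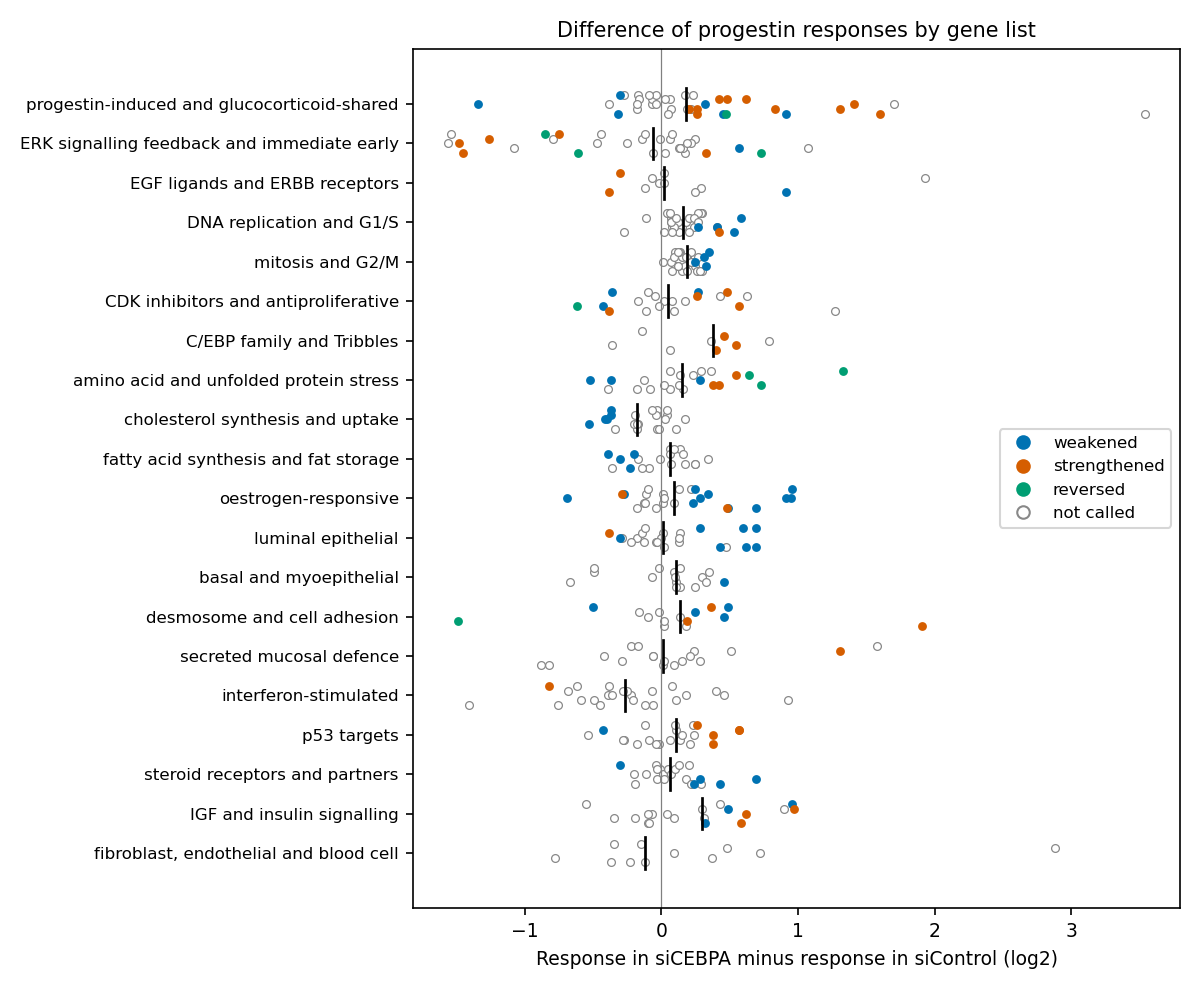
Difference of responses (log2, horizontal axis) of every measured member of the 20 gene lists (points), coloured by class, with a black bar at the median of each list. Members of the cholesterol list lie mostly left of 0 (median -0.17), those of the replication, mitosis and IGF lists mostly right of it (medians 0.16, 0.18 and 0.30), and the uncalled points are open.

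The share of genes with a difference varied with the size and the direction of the hormone response. Among genes with a called response in at least 1 of the siRNA groups that progestin raised, by the mean of both log2 responses, 11.9% of 4723 with a mean of 0 to 1 differed, 19.9% of 1012 with 1 to 2, 20.1% of 288 with 2 to 3, and 9.33% of 225 with 3 or more. Among genes that progestin lowered, the shares were 7.65% of 4743, 7.66% of 1267, 8.43% of 249 and 6.02% of 83. The steepest responders of either direction were thus not those that differed most often. The share called was larger at higher expression levels: 0.52% of 4998 genes under 1 CPM were called, 4.72% of 3789 at 1 to 10 CPM, 10.4% of 7092 at 10 to 100 CPM and 15.6% of 2472 above, while the median SE was 0.652, 0.212, 0.09 and 0.061. On the linear scale, 634 of the 695 weakened genes also had a smaller CPM change in siCEBPA cells and 61 a larger one. IGFBP4 and FKBP5 were among those 61. Of the 549 strengthened genes, 510 had a larger CPM change and 39 a smaller one. S100P, DUSP6, CEBPA and CEBPB were among those 39.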

How the data were processed

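RNA-seq of T47D cells was deposited as 1 table per library of raw counts per gene, which the authors made with featureCounts 1.5.1 against GENCODE 24 on hg38, per the file headers, from paired reads counted on the reverse strand. STAR and Trimmomatic are named without versions in the submitters' processing notes. The ChIP samples were not analysed here. Libraries were grouped by their titles. The 8 siRNA libraries entered 1 fit in edgeR 4.0.16 (R 4.3.3) with filterByExpr, TMM scaling, a robust quasi-likelihood dispersion and a mean per group; the 5 contrasts were tested with glmQLFTest and p-values were adjusted by Benjamini-Hochberg over all 18351 genes kept. SE is the size of the log2 fold change divided by the square root of F. Counts were simulated for 18150 genes with the spread estimated from these libraries. Differences of responses were planted only in genes with a mean of at least 1 CPM, 66 or 67 genes for each fold. Of these, 83.6% of 1.5-fold, 91% of 2-fold and 98.5% of 4-fold differences were recovered. Among unchanged genes 0.0669% were called. The recovery rates do not cover genes under 1 CPM. Precision follows depth, 57364785 to 148624099 counts per library.

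Genes named by the rule for classes and lists have a mean of at least 5 CPM in at least 1 group. They are the 5 calls with the largest difference in each class and direction, and the 4 members of each of 20 lists with the smallest p. CDKN1A, CCND1, PGR, CEBPA, RAD21, TOP2A and TOP2B were taken besides. ADCY9, CLDN4, FOS, HES1, IGFBP5, KLF10, PERP, RET, SGK1, SLC7A5, STAT5A and TSC22D3 were added after their values were seen. Those additions were not held to the floor of 5 CPM, which FOS and SGK1 reached in no group. Some genes that the rule took are not reported here. COL1A1 is named as a marker. DUSP4, DUSP5, SPRED1, SPRED2, SPRY1 and SPRY4 are named as members of the ERK list, after their values were seen. Genes, lists and classes were chosen with earlier results of these data known. Alternatives were other scalings and filters, DESeq2 1.42.0, limma-voom 3.58.1, a fit with all 12 RNA-seq libraries, a replicate block, a test against a 1.2-fold difference, thinning of the deepest library and leaving out each library.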

Additional observations from a re-analysis of the deposited data

Results flagged for a closer look

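The response to progestin was tested for a difference between siCEBPA and siControl cells, and 1329 genes differed. For genes taken by the naming rule, responses of opposite sign in siCEBPA and siControl cells, both called, were found as follows. The difference of responses (log2) was 1.33 at AKAP12, 1.33 at CHAC1, 1.33 at RASGRP1, 1.39 at RBM24, 1.41 at NR5A2, 0.73 at ATF3 and 0.47 at PRLR. It was -1.49 at PKP2, -1.15 at HOXC11, -1.08 at MLLT11, -0.85 at EPHA2 and -0.83 at SLITRK5, a neuronal membrane protein whose siCEBPA fall was not called with DESeq2 size factors (-0.21, adjusted p = 0.0551). Among genes chosen after their values were seen, KLF10 (-0.61) and SLC7A5 (0.64) had responses of opposite sign too. The siCEBPA rise of SLC7A5 was not called by edgeR with upper quartile scaling (0.16, adjusted p = 0.145) or with no scaling factors (0.12, adjusted p = 0.231).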

How the results depend on the processing

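No gene called in the comparison of responses had the opposite sign under any alternative run. Other scalings, other filters, DESeq2, limma-voom, the fit of 12 libraries, the block and thinning kept 89.0% to 99.9% of the 1329 calls, while leaving out a library kept 51.6% to 82.6% and a test against 1.2-fold kept 22.2%. Leaving out 1 library gave 383 to 811 calls above 0 and 305 to 570 below, with 344 to 701 weakened, 301 to 622 strengthened and 47 to 76 reversed; the counts were lowest without a siControl progestin library, and the cause was not tested. With no filter on low counts 1159 genes were above 0, and DESeq2 gave 55 reversed genes; the cause was not tested. Testing against 1.2-fold, a stricter question by construction, left 195 above 0 and 100 below, with 125 weakened, 129 strengthened and 41 reversed. Same-numbered libraries deviated together in some pairs of groups only (r = -0.00478 to 0.389), so the numbers were not taken to pair the samples; with a replicate block there were 1324 genes above 0 and 947 below, 1225 weakened, 921 strengthened and 123 reversed. The share of calls above 0 was 57.8%, against 49.7% with upper quartile scaling. Differences in genes under 1 CPM were mostly not detectable at this depth.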
